A study of Mus musculus with 26 samples.

Results

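Nphp4, Kcnab2 and Klhl21 are neighbors on mouse chromosome 4, and an enhancer inside Nphp4 was called active in cells given retinoic acid (RA) and not in cells given leukemia inhibitory factor (LIF). Described here are these 3 genes, every ATAC-seq peak and every differential enhancer region between 151.8 and 152.7 Mb of chromosome 4 (GRCm38), and any other gene of this 900 kb span with a row in the deposited expression table. The span was set around enhancer regions selected on their measured probabilities, so those probabilities are given as a description and are not a finding. Of the 3 genes, 2 have a row in the expression table, Nphp4 and Klhl21, whereas Kcnab2 has none. With Chd5, the span holds 3 of the 2189 listed genes. It holds 2 of the 327 differential enhancer regions, 147 of the 163484 ATAC-seq peaks of the LIF state and 136 of the 141465 of the RA state.

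The cells are E14, a line of mouse embryonic stem cells. In the state called mESC+ they received LIF, the cytokine that keeps them pluripotent, and in the state called mESC- they received 1 µM RA without LIF for the last 4 h of a 48 h culture. Adding RA and removing LIF therefore cannot be told apart. ATAC-seq, which cuts open chromatin with a transposase, has 1 library per state. Enhancer probabilities came from ChIP-seq of the 3 histone modifications H3K4me1, H3K4me3 and H3K27ac with an input, also 1 library of each per state. RNA-seq has 3 libraries per state, of which the table used here holds only a mean. No difference between the states can thus be set against a replicate spread, and no test was made. The depth of the libraries is unknown.

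Nphp4 encodes nephrocystin-4, a protein of the ciliary transition zone, the gate at the base of the primary cilium, and mutations of its human counterpart cause the kidney disease nephronophthisis. Kcnab2 encodes a cytoplasmic beta subunit of voltage-gated potassium channels. Klhl21 is a BTB-Kelch protein that serves as a substrate adaptor of the CUL3 ubiquitin ligase during cell division. RA acts through RAR-RXR heterodimers, nuclear receptors that bind pairs of hexamers in the same orientation, called direct repeats (DR) and named by the number of bases between the hexamers.

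The differential enhancer region inside Nphp4 covers chr4:152533801-152540300, or 6500 bp, and its center lies 60.3 kb downstream of the annotated start of the gene and 26.1 kb upstream of its end. It contains 5 annotated exons, which make up 708 bp, and is otherwise intronic. The other region of the span covers chr4:151895701-151897600, or 1900 bp, and lies 640.4 kb away between Camta1, which encodes a calmodulin-binding transcription activator, and Dnajc11, which encodes a mitochondrial J-domain protein. Both regions had an enhancer probability of 0 in mESC+ and of 1 in mESC-. Among all 327 regions, 141 had the higher probability in mESC- (called RA regions below), and only 4 went from exactly 0 to exactly 1. Of those 4, 2 are in this span.

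The sequences below are the 300 bases around the summit of the mESC- ATAC-seq peak in each region, because these stretches carry the repeats described next. They were read from the plus strand of GRCm38 (RefSeq), and capitals mark the hexamers of every direct repeat found. The first stretch (chr4:152535589-152535888) lies in an intron of Nphp4, the second (chr4:151897138-151897437) is intergenic.
Nphp4 region: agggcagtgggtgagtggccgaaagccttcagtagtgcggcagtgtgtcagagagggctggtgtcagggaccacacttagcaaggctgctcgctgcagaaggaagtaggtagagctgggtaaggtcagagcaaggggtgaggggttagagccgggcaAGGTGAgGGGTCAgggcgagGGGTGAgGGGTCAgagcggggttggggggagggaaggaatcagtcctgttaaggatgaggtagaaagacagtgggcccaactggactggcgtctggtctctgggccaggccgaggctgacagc
Intergenic region: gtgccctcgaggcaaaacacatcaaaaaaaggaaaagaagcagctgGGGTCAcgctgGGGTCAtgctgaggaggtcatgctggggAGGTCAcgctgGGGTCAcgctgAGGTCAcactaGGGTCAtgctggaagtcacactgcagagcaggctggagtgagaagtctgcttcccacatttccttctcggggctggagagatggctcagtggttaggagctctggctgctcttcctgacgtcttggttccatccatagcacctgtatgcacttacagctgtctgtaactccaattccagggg

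The region inside Nphp4 was open only in the mESC- list. No mESC+ peak overlaps any of its 6500 bp. The mESC- list has 1 peak there, chr4:152535564-152535963, with a fold enrichment of 9.71 over the local background and a -log10 q of 17.99. Its summit, at position 152535738, is intronic, and 54 bp of its 400 bp are exonic. Because the fold enrichments of separate libraries do not share a scale, each peak was ranked within its own list, and this one stands at percentile 77.2. Only 0.297% of the mESC- peaks without an overlapping mESC+ peak rank as high or higher. Such peaks are 14.1% of the mESC- list.

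A peak in mESC- alone was found in few of the RA regions. Of the 141, 104 overlap at least 1 mESC- peak, and 12.8% (18 regions) overlap a mESC- peak but no mESC+ peak. By the percentile of its peak, the Nphp4 region is the second highest of those 18, and it ranks 30 of 141 among all RA regions. The median percentile of the strongest mESC- peak is 64.6 over the RA regions that have one. It is also broad, at rank 13 of 141 in width against a median of 1400 bp. Its GC content of 56.2% compares with a median of 51% and a range of 33.8% to 59.8% over the RA regions, and it has 2.48 CpG per 100 bp against a median of 1.42.

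**Figure D1:**
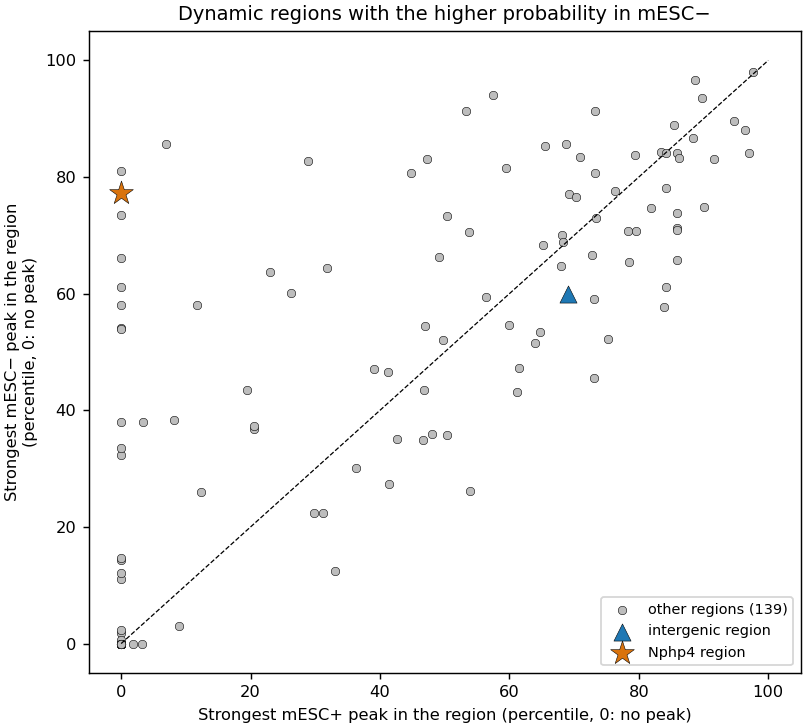
Strongest ATAC-seq peak in each of the 141 RA regions, as its percentile by fold enrichment in the mESC+ list (x axis) and in the mESC- list (y axis), with 0 where a list has no peak. The Nphp4 region (star) sits at 0 on the x axis and 77.2 on the y axis, and the intergenic region (triangle) at 69.0 and 59.9.

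The intergenic region was open in both states. Its mESC+ peak, chr4:151897277-151897496, has a fold enrichment of 8.71 (percentile 69.0), and its mESC- peak, chr4:151896795-151897484, one of 7.47 (percentile 59.9). By fold enrichment the change from mESC+ to mESC- is therefore -9.12 percentile points, opposite in sign to the change of its enhancer probability, whereas by -log10 p it is 0.956 points. What differs more plainly is the extent. The mESC+ peak is 220 bp wide and the mESC- peak 690 bp, and the extra length lies upstream of the mESC+ peak. The summits are at 151897412 in mESC+ and 151897287 in mESC-. Peak widths were set by MACS2 in each library and have no replicate check.

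That extra length holds the direct repeats. Searched on both strands were hexamers of the sequence AGGTCA and of its variant with a leading G, written GGGTCA. The forms with T in the place of the last G of each, AGTTCA for the former and GGTTCA for the latter, were searched too. Repeats had a spacing of 1, 2 or 5 bases (DR1, DR2 and DR5) and at most 1 mismatch over both hexamers. The intergenic region contains 4 DR5 without mismatch, all on the plus strand within 78 bp:
chr4:151897184-151897200: GGGTCAcgctgGGGTCA
chr4:151897223-151897239: AGGTCAcgctgGGGTCA
chr4:151897234-151897250: GGGTCAcgctgAGGTCA
chr4:151897245-151897261: AGGTCAcactaGGGTCA
The second to the last share hexamers, so that the 4 repeats use 6 hexamers. All of them lie inside the mESC- peak, with centers 34 to 95 bp from its summit, and none lies in the mESC+ peak, which begins 16 bp beyond the last. A DR2 with 1 mismatch (chr4:151896085-151896098) is in no peak of either list. None of the 78 bp is marked as a repetitive element in the reference, in which 44.2% of the region is. By its letters, however, the stretch is a tandem repeat, in which near copies of a hexamer with the 5 bases after it follow each other. Neighboring copies form a DR5, so the 4 matches are not independent of each other.

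Arrays of this kind are rare in these peaks. At least 4 DR5 without mismatch occur in 4 of 141403 windows of 300 bp around mESC- summits and in 1 of 163406 around mESC+ summits, and the window of the intergenic region is one of those 4. At least 1 such DR5 occurs in 0.401% and 0.212% of these windows. Among windows of 1900 bp around the centers of the 141 RA regions, 20 (14.2%) hold at least 1, and only the intergenic region holds at least 4. Counted as single exact hexamers, the intergenic window holds 7, as many as or more than which are found in 31 of the 141403 mESC- windows, where the median is 0.

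The Nphp4 region has weaker matches, placed closer to the summit. It contains no direct repeat without mismatch. With 1 mismatch it contains a pair of DR1, chr4:152535746-152535758 (AGGTGAgGGGTCA) and chr4:152535766-152535778 (GGGTGAgGGGTCA), both on the plus strand. Their centers are 14 and 34 bp from the summit of the mESC- peak, inside 33 bp of sequence that is not marked as repetitive. The letters of the pair differ only in the first base, so these matches too are near copies of each other. At least 2 such DR1 occur in 0.109% of the mESC- summit windows and at least 1 in 3.04%. Over the full length of the region such a pair is common, and 37.6% of 6500-bp windows around RA region centers hold at least 2 of them. The window holds 3 exact hexamers, which 4.41% of mESC- windows reach. Among annotated promoters (250 bases before to 50 after the start), 6.32% of 32851 hold any of the searched repeats with at most 1 mismatch. A match is a description of the letters, and binding of the receptors was not analysed here.

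**Figure D2:**
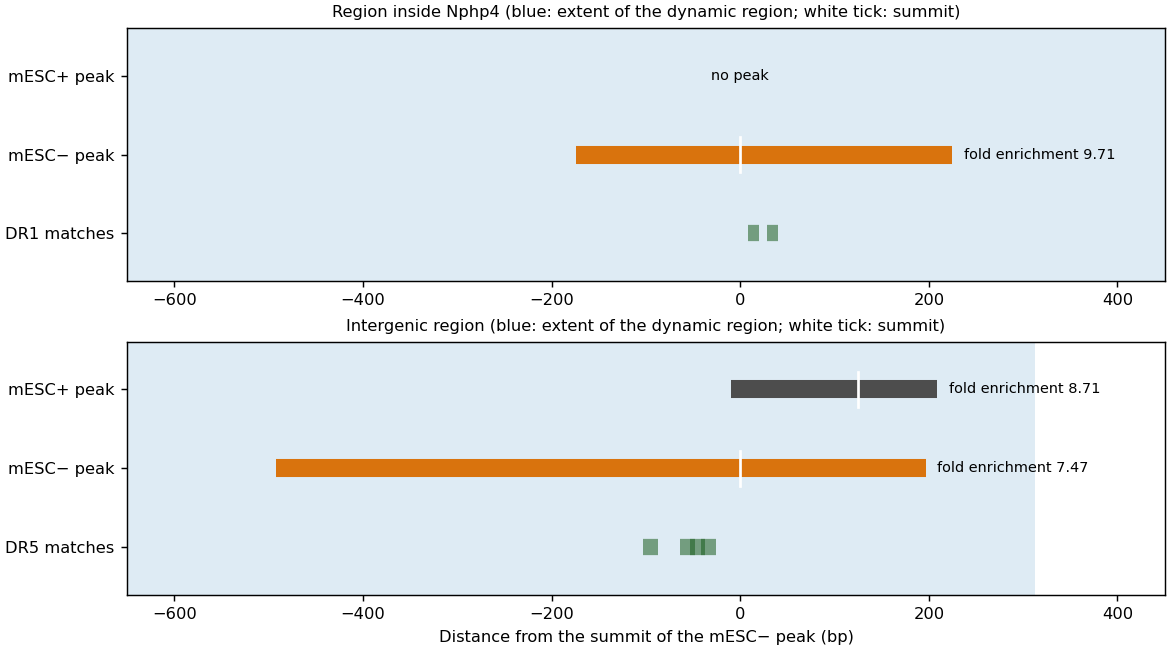
Position of the ATAC-seq peaks (bars, white tick at the summit) and of the direct repeats (green) in bp from the summit of the mESC- peak, for the region inside Nphp4 (top) and the intergenic region (bottom). The 2 DR1 of the Nphp4 region sit 14 and 34 bp from the summit where mESC+ has no peak, and the 4 DR5 of the intergenic region sit inside the mESC- peak and outside the mESC+ peak.

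Motifs of pluripotency factors were searched as well, chosen with results of these data known. Neither region contains TCAAGGTCA, the site of ESRRB, in which the hexamer AGGTCA is nested, or TTCCNGGAA, the STAT site. The Nphp4 region contains 1 octamer ATGCAAAT, recognized by OCT4, and the intergenic region none. At least 1 octamer is found in 22.7% of 6500-bp windows and in 7.80% of 1900-bp windows around RA region centers. The E-box CAGCTG occurs 9 times in the Nphp4 region and 2 times in the intergenic one, and at least once in 96.5% and 61.0% of the windows of those lengths.

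The body of Nphp4 was about as rich in peaks in both states. The gene (ENSMUSG00000039577, chr4:152476706-152563183, plus strand) overlaps 10 mESC+ and 11 mESC- peaks. Merged across the lists, they form 13 peaks, of which 8 are in both lists, 2 only in mESC+ and 3 only in mESC-. Over the whole lists, 26.1% of mESC+ peaks and 14.1% of mESC- peaks have no partner. Counts this small cannot be told apart from those shares. Of the 8 in both, 5 rank higher in mESC- and 3 lower, where 40.7% of all merged peaks in both lists rank higher in mESC-. The median change is 4.01 percentile points, with a range from -43.2 to 35.7.

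The peaks of Nphp4 found only in mESC- lie close together. Besides the one in the enhancer region, they are intronic peaks at chr4:152530250-152530354 (percentile 22.1) and chr4:152530661-152530818 (percentile 36.1), both within 4 kb upstream of the region. Downstream of it, at chr4:152541366-152541519, an intronic peak in both lists goes from percentile 15.9 in mESC+ to 51.6 in mESC-. This change of 35.7 points, noticed after its value was seen, is the highest of the 116 merged peaks in both lists in the span. Within 10 kb of the region there are 5 mESC- peaks and 3 mESC+ peaks. Not all changes there were toward mESC-. The peak at chr4:152545541-152545638 is found only in mESC+, and the one at chr4:152546614-152546813 ranks lower in mESC-.

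Among the other peaks of the gene the changes went both ways. The intronic peak at chr4:152491339-152491681 stands at percentile 78.2 in mESC+ and 87.9 in mESC-, and the one at chr4:152520153-152520414 at 73.5 and 77.3. After its values were seen, the intronic peak at chr4:152514711-152515030 was noted for the opposite change, from 47.8 to 4.57, as was that at chr4:152546614-152546813, from 54.0 to 15.0. Both peaks found only in mESC+ lie toward the 3′ end, at chr4:152545541-152545638 (intronic, percentile 30.4) and chr4:152554569-152554752 (touching an exon, percentile 51.7). The latter shares the highest percentile among the 27 peaks of the span that only mESC+ has with an intergenic peak at chr4:152663204-152663330.

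**Figure D3:**
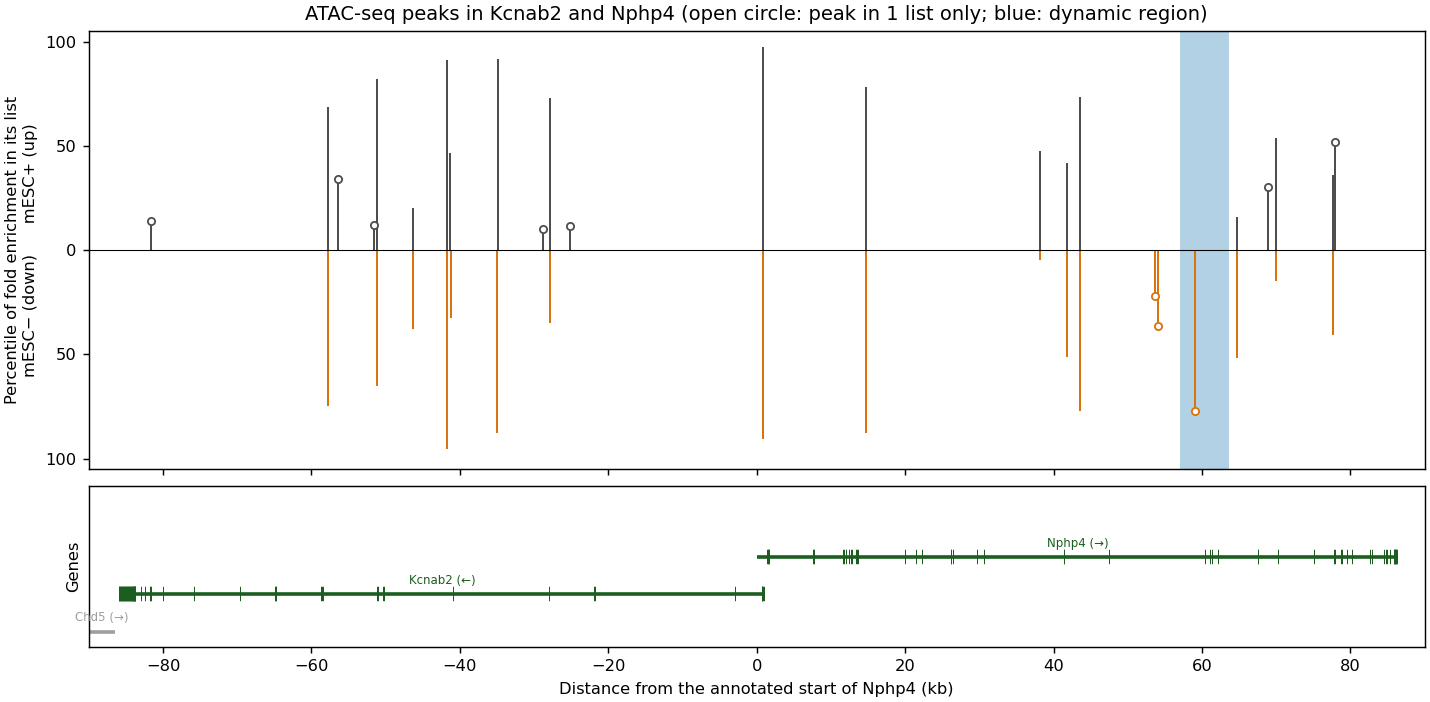
Percentile by fold enrichment of each ATAC-seq peak in mESC+ (upward lines) and mESC- (downward lines) against the distance from the annotated start of Nphp4 in kb, with the exons of Nphp4 and Kcnab2 below. Open circles mark peaks found in 1 list only, and the blue band marks the differential enhancer region, in which the only peak is the mESC- one at percentile 77.2.

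Nphp4 and Kcnab2 start head to head. The genes lie on opposite strands and overlap by 1166 bp at their starts, so each runs through the annotated start of the other. The peak in this overlap is the strongest of either gene in mESC+, at chr4:152477398-152477772 with a fold enrichment of 17.6 (percentile 97.6). In mESC- it covers chr4:152477254-152477984, with a fold enrichment of 13.0 (percentile 90.5). The summits are 36 bp apart. They lie 0.866 kb (mESC+) and 0.902 kb (mESC-) downstream of the annotated start of Nphp4. The peak touches an exon of Kcnab2 and is intronic in Nphp4. The center of the enhancer region lies 59.2 kb from the annotated start of Kcnab2, about as far as from that of Nphp4.

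Kcnab2 itself has no peak that only mESC- has. The gene (ENSMUSG00000028931, chr4:152390742-152477871, minus strand) overlaps 13 merged peaks, 8 in both lists and 5 only in mESC+. For comparison, 26.1% of all mESC+ peaks and 14.1% of all mESC- peaks have no partner in the other list. Of the 8, 3 rank higher in mESC- and 5 lower, with a median change of -5.56 percentile points. Among all merged peaks in both lists 40.7% rank higher in mESC-, and the median change is -2.49. The 5 peaks of mESC+ alone are weak, at percentiles from 10.2 to 34.1. They begin at positions 152395051 (touching an exon), 152420185, 152425062, 152447777 and 152451483 (in introns).

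The strongest Kcnab2 peaks away from the overlap with Nphp4 differ little in rank. The intronic peak at chr4:152434904-152435112 stands at percentile 91.0 in mESC+ and 95.4 in mESC-, and the one at chr4:152441606-152441866 at 91.6 and 87.6. An internal start of the gene, at chr4:152448814-152449048, goes from percentile 73.1 to 34.8, the lowest change in Kcnab2. Another peak that touches an exon, at chr4:152425466-152425701, goes from 82.2 to 65.1. Whether any of these changes exceeds the difference between libraries of 1 state cannot be said from 1 library each.

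Klhl21, whose start lies 528.2 kb from the center of the region inside Nphp4, had few and mostly weak peaks. The gene (ENSMUSG00000073700, chr4:152008803-152017680, plus strand) overlaps 4 merged peaks. The one at its start (chr4:152008690-152009332) stands at percentile 60.6 in mESC+ and 53.5 in mESC-, and a second peak just downstream, in the same exon, at 4.94 and 1.44. An intronic peak (chr4:152010156-152010277, percentile 9.23) is found only in mESC+ and an exonic one (chr4:152015507-152015642, percentile 2.36) only in mESC-. The start of Klhl21 overlaps Gm9768 on the minus strand, and how strand was treated in counting the RNA-seq reads is not given in the sources used here, so reads of the pair could not be told apart from the table.

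In RNA level, Klhl21 was the highest of the 3 listed genes of the span and Nphp4 and Chd5 were below the middle of the list. The values are the authors' mean normalized counts over all 6 libraries of both states, with no spread. Klhl21 has a mean of 2853 (716 per kb of exon, percentile 84.6 of the listed genes per kb), Nphp4 one of 390.2 (64.6 per kb, percentile 33.7) and Chd5, which encodes a chromodomain helicase that remodels nucleosomes, one of 467 (48.7 per kb, percentile 28.9). The medians over the listed genes are 627 and 138 per kb. Having a row is not itself a level. Rows exist for 9.04% of annotated protein-coding genes and for 3 of the 21 in the span, and the rule for listing is not given in the sources used here. Camta1 and Dnajc11, which flank the intergenic region at 34.8 and 37.0 kb, have none.

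Chd5 (ENSMUSG00000005045, chr4:152338651-152390194, plus strand) lies tail to tail with Kcnab2, and its start lies 198.4 kb from the center of the enhancer region in Nphp4. It overlaps 11 merged peaks, 10 of them in both lists, with 3 ranking higher in mESC- and 7 lower and a median change of -9.12 percentile points. Among all merged peaks in both lists 40.7% rank higher in mESC-, and the median change is -2.49. The peak nearest to a start, at an internal start downstream of the first one (chr4:152340834-152341316), stands at percentile 72.3 in mESC+ and 53.0 in mESC-. It has 1 peak only in mESC-, which begins at position 152379356 and touches an exon (percentile 56.3).

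Over the whole span, the share of mESC- peaks without a mESC+ partner depended on which peaks were counted. Of its 136 mESC- peaks, 15 have no overlapping mESC+ peak, or 11.03% (exact Clopper-Pearson 95% interval 6.31% to 17.5%), against 14.1% over the list. Their median percentile is 13.5, and the highest of them is the 77.2 of the peak in the Nphp4 region. The next, at percentile 73.4, is an intronic peak of another gene at chr4:152209508-152209854, outside both enhancer regions. Of the 147 mESC+ peaks, 27 have no mESC- partner, or 18.4% (12.5% to 25.6%), against 26.1% over the list. The intervals cover counting error over peaks only, and the interval of mESC+ ends below the share of its list. Among strong peaks the order of span and list in mESC- was the opposite. The 2 settings used differ in what counts as a partner. When each list was cut to its 50000 peaks of highest fold enrichment, 15 of 42 mESC- peaks of the span have no partner (35.7%), against 19.0% over the list. Most of these 15 do overlap a mESC+ peak, but one outside its top 50000. With a -log10 q of at least 10, any mESC+ peak counted as a partner, and it is 2 of 61 (3.28%) against 0.711%. The cause was not tested.

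Among the 116 merged peaks in both lists, 45 rank higher in mESC- (38.8%, interval 29.9% to 48.3%), near the 40.7% of all merged peaks. The median change is -3.63 percentile points in the span and -2.49 over all merged peaks. The changes run between quartiles from -15.2 to 4.38 in the span and from -13.0 to 4.63 over all.

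**Figure D4:**
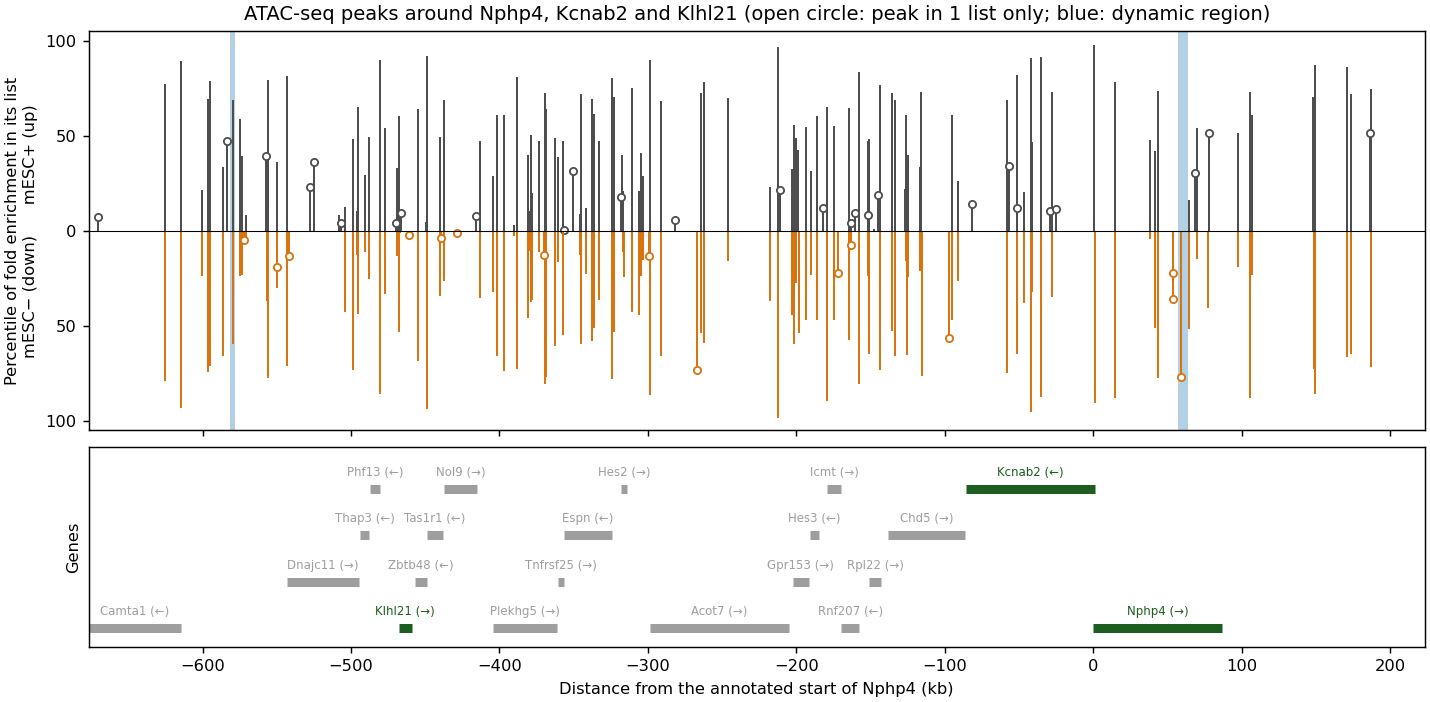
Percentile by fold enrichment of all 147 mESC+ peaks (upward) and 136 mESC- peaks (downward) of the span against the distance from the annotated start of Nphp4 in kb, with the protein-coding genes below. Open circles mark the 27 and 15 peaks found in 1 list only, and the blue bands mark the 2 differential enhancer regions, the left one with a peak in both lists and the right one with a peak only in mESC-.

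**Figure D5:**
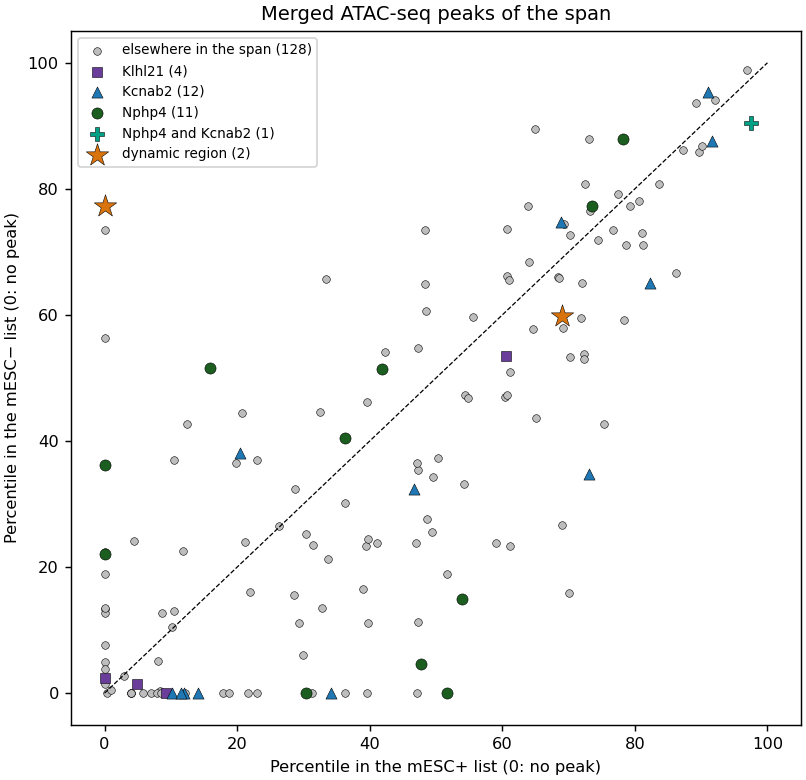
Percentile of each of the 158 merged peaks of the span in the mESC+ list (x axis) and the mESC- list (y axis), with 0 where a list has no peak. The star at 0 and 77.2 is the Nphp4 region, the highest of the points on the y axis. The cross at 97.6 and 90.5 is the peak in the overlap of Nphp4 and Kcnab2.

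The limits of the span cut through no enhancer region. The nearest ones outside lie 411.6 kb to the left, with probabilities of 0.0194 in mESC+ and 0.912 in mESC-, and 2413.2 kb to the right, with 0.0164 and 0.9702. On the left, the last peaks outside the limit are 18.5 kb (mESC+, percentile 26.3) and 6.46 kb (mESC-, percentile 18.9) away, and the first inside are 6.33 kb (percentile 6.95) and 51.3 kb (percentile 79.1) away. On the right, the last peaks inside stand at percentiles 74.4 and 71.9 and the first outside at 74.4 and 56.3.

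Other genes of nephronophthisis and the transition zone mostly had an open start in both states. Of 26 such genes besides Nphp4, 26 have a mESC+ peak and 25 a mESC- peak within 500 bp of a start, against 70.3% and 69.2% of all protein-coding genes. The median percentiles are 94.1 and 92.0, against 80.9 and 80.2 over all protein-coding genes with such a peak. The exception is Nek8, a kinase of the inversin compartment, with a mESC+ peak at percentile 8.33 and none in mESC-. A differential enhancer region lies in the body or within 100 kb of the start of 1 of them, near the 3.92% of all protein-coding genes. It is the transition zone gene Tctn1, at 32.1 kb, called at 0 in mESC+ and at 0.9306 in mESC-.

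Of these 26 genes, 4 have a row in the expression table, which 9.04% of protein-coding genes have. The means are 2617 for Glis2, a zinc finger transcription factor, 992.5 for Tmem231, 377.2 for Tctn1 and 66.0 for Rpgrip1. Per kb of exon these are 598, 185, 45.5 and 5.43. Nphp4, at 64.6 per kb, falls between Tmem231 and Tctn1.

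Of the relatives of the other members, 1 of 6 has a row in the table, near the background of 9.04%. Neither Kcnab1 nor Kcnab3, the remaining beta subunits, has a row, and their start peaks stand at percentiles 71.6 and 64.9 in mESC+ and 77.8 and 55.1 in mESC-. Of the 4 partners of Klhl21, Cul3, the scaffold of the ligase, has one, with a mean of 8113 (1665 per kb), and Klhl9, Klhl13 and Aurkb have none. All 4 have a start peak in both lists, at median percentiles of 80.8 and 83.0, near those of all protein-coding genes. No differential enhancer region lies within 100 kb of the start of any of these genes. Embryonic stem cell markers were looked up as a check of the cell line, and 6 of 6 have a peak within 500 bp of a start in both lists. Their percentiles range widely, from 0.147 in mESC+ and 0.299 in mESC- for Pou5f1 and 12.7 and 13.3 for Nanog to 75.6 and 84.2 for Zfp42, with Sox2, Esrrb and Klf4 between them. With a start peak in 70.3% and 69.2% of all protein-coding genes, this count is a weak check.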

How the data were processed

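ATAC-seq, ChIP-seq and RNA-seq of E14 cells were analysed as deposited (26 samples). ChIP-seq reads were mapped to GRCm38 by the authors with STAR 2.5.1b, duplicates were removed, and the random forests of CRUP gave each 100-bp bin an enhancer probability, a fraction between 0 and 1. Bins that differed between the states were merged within 2 kb. ATAC-seq reads were mapped with BWA-MEM. Peak calling by the authors used MACS2, 1 library at a time, with parameters not given in the sources used here. Each deposited peak carries its fold enrichment, −log10 p and −log10 q. The RNA-seq table deposited by the authors gives a mean signal, that is counts divided by DESeq2 size factors and averaged over 6 libraries. Its fold changes, standard errors, Wald statistics and p-values, and the p-value and cluster of each enhancer region, are the authors' own comparisons and were not used, so no direction of RNA change is given. The 10 ChIP-seq libraries of other histone modifications were not used here. Depth per library is unknown.

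Peaks were ranked within their list and merged where they overlapped by at least 1 bp. Genes came from GENCODE M21, sequences from RefSeq GRCm38.p6. Members and lists were chosen with earlier results of these data known. Named are the 3 genes, other listed genes of the span, genes hosting or flanking its enhancer regions, and genes of 3 lists with a row or a region. The values of 1 gene of these lists are not reported here. Named peaks are those in enhancer regions, at member starts, the 3 highest per member and list, and those of 1 list only. Functions were tested on simulated data. Alternatives varied the overlap, the peak threshold, the ranking, the window and the mismatches. Scripts ran in Python 3.11.15, with pandas 2.3.3 and NumPy 2.4.6 for tables, pysam 0.24.0 for sequences, SciPy 1.17.1 for intervals and matplotlib 3.10.9 for figures.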

Additional observations from a re-analysis of the deposited data

How the results depend on the processing

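Of 22 alternatives, 8 left a share within its interval or a count within 1.5 times (2 of them took the repeats of the intergenic region from 5 to 4), 11 moved a value and 3 reversed a sign. Among peaks with −log10 q at or above 10, the share without a partner in the span was 3.28% in mESC- and 0% in mESC+, against 0.711% and 3.17% over the lists. With the top 50000 peaks it was 35.7% and 22.9%, against 19.0% and 19.1%. In the former setting any peak of the other list counted as a partner, in the latter only its top 50000. Both settings left Nphp4 with 3 mESC+ and 4 mESC- peaks, since fewer peaks are counted. The median percentile change in the span was −5.14 when ranked by −log10 p and −4.63 with lists without a peak at 0. It was 2.89, the opposite sign, with the top 50000 peaks, where that of all merged peaks was 0.645. At the intergenic region, the change was 0.956 by −log10 p and 59.9 within 300 bp of the center, both opposite in sign to the −9.12 of the whole region by fold enrichment. In the latter window mESC+ has no peak, and only the edge of the mESC- peak reaches into it. That peak begins at 151896795, with the center of the region at 151896650 and the summit 0.637 kb from the center. The 59.9 is the rank of the whole peak, so this reversal rests on a few bases of overlap. At the Nphp4 region it was 78.6 by −log10 p, and the 300 bp around its center, which hold no peak of either list, gave no value. Without mismatches the Nphp4 region held 0 repeats. The causes of the changed ranks were not tested. No paired analysis was possible because ATAC-seq and ChIP-seq have 1 library of each kind per state and the RNA-seq table carries no values per library. For the same reason no replicate could be left out.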
